A study of Mus musculus with 6 samples.

Results

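The 32 genes described here belong to the unfolded protein response of the endoplasmic reticulum (ER) and to the ATF4 stress programme. They were picked from known members of these pathways with earlier results of the same 6 arrays of mouse lung metastases in view, and found by symbol among 12393 genes that the array annotation names alone. The array carried 67 probe sets annotated with only 1 of these symbols, out of 22690 in all. For each gene the main probe set was selected on the highest mean over the 6 arrays, so that it is the brightest is not a finding. Of the 67 probe sets, 58 were outside the 40% with the lowest mean log2 values, and 30 of the 32 main probe sets were. The main probe sets of Ern1 and Slc7a11 were among the dimmest 40% and entered no test.

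All 6 metastases came from FVB mice with MMTV-Myc tumours, in which a promoter active in mammary epithelium drives the Myc oncogene. According to the labels, 3 were Myc E2F2 KO (called KO here) and 3 were Myc E2F3 Het (called Het). The labels used here give no ages, and Myc metastases without an E2F mutation were not analysed here. The titles of the 3 Het arrays share 1 number and those of the KO arrays have 3; the labels do not say whether such a number marks a mouse. Nothing in the labels names separate animals, and p-values here thus reflect the spread of these samples alone, which may be partly technical. Het replicates 1, 2 and 3 are those titled LM2, LM1 and LM3.

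When unfolded proteins build up in the ER, the membrane sensors IRE1 (Ern1), PERK (Eif2ak3) and ATF6 are activated. IRE1 splices the mRNA of the transcription factor XBP1, ATF6 is cut to release a transcription factor, and both induce chaperones and the machinery that sends misfolded proteins for degradation. PERK phosphorylates the initiation factor eIF2, which slows translation in general and favours translation of Atf4. ATF4 induces genes of amino acid synthesis and import, and it also answers to amino acid shortage through another eIF2 kinase, so its branch can be active without ER stress. Mammary epithelium is a secretory tissue that folds much protein in the ER, and Myc-driven growth raises the demand for amino acids.

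Known response elements were looked for in the promoters of the members. The 250 bases upstream of the start were searched on both strands in RefSeq promoters of the GRCm38.p6 assembly, which held 29 of the 32 genes. The ER stress response element (ERSE) is the letters CCAAT and CCACG with any 9 bases between them. It was in 8 of 19 ER genes and 0 of 10 ATF4 genes, against 0.130% of all 27025 genes with a promoter. The related ERSE-II, ATTGG and CCACG with any 1 base between them, was in Herpud1 alone among these genes, against 0.0370% of all genes. The element bound by ATF4 with C/EBP partners (CARE) was searched as TGATGNAA. It was in 4 of the 29 genes, Asns, Chac1, Slc7a11 and Herpud1, against 3.91% of all genes. A core of the XBP1 element, TGACGTGG, was in none of the 29, against 0.603% of all genes. The ERSE and ERSE-II share the letters CCACG, which the reverse strand of the XBP1 core also holds, and no matches overlapped. A match is a description of letters and does not show binding. The genes were picked as known members of these pathways, so a higher share among them than among all genes is not a finding.

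The windows below are a selection. Hsp90b1, Pdia6, Dnajc3 and Syvn1 also held an ERSE and Slc7a11 a CARE, and their windows are not shown. Capitals mark the ERSE in Hspa5, Calr, Canx and Creld2 and the CARE in Asns and Chac1. In Herpud1 they mark first the CARE and then the ERSE-II. All windows shown run 5′ to 3′ on the strand of the gene, and in Calr, Creld2, Chac1 and the CARE of Herpud1 the element is read on the opposite strand. Those of Calr, Canx and Asns lie on the minus strand and the others on the plus strand.
Hspa5, chr2:34772005-34772063: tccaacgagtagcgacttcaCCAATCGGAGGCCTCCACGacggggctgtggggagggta
Calr, chr8:84847055-84847113: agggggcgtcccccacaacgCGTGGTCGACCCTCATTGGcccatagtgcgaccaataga
Canx, chr11:50325780-50325838: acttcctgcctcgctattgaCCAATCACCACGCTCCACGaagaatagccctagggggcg
Creld2, chr15:88819500-88819558: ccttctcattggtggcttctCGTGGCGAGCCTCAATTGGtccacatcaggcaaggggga
Herpud1, chr8:94386297-94386407: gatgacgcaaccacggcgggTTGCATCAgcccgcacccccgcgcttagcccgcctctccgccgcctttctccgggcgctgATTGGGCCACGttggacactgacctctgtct
Asns, chr6:7693210-7693252: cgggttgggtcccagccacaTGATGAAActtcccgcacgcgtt
Chac1, chr2:119351029-119351076: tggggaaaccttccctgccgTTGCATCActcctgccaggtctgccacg
Herpud1 was the 1 gene of the 29 whose searched promoter held both an ER element and a CARE. It was also the member whose main probe set had the largest log2 difference between the genotype groups. Asns and Chac1, which also hold a CARE, were at 0.16 and -0.08. A link between these elements and the differences was not tested.

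The values are array signals on a linear scale, which the authors had brought to a common trimmed mean of 500.2 per array. The actin 3' to 5' signal ratio, a measure of RNA integrity, was 2.38 on Het replicate 1 and 1.48 to 1.73 on the other arrays. For the transferrin receptor it was 11.8 on Het replicate 1, against 3.25 to 5.15. For Gapdh Het replicate 1 hardly stood out, at 0.93 against 0.75 to 0.90. All 8 mammary epithelial markers passed the filter on dim probe sets, with summed signals of 57219.5 to 73859 per array. All 9 lung alveolar markers on the array passed too, and their summed signal was 63209.5, 37693 and 13330.4 in KO replicates 1, 2 and 3 and 31328, 20413 and 22619 in Het replicates 1, 2 and 3. The metastases thus held lung RNA in unequal amounts. In such bulk samples, fewer cells of a type and less RNA per cell cannot be told apart.

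Between the genotype groups, Atf4 and the ER degradation genes Herpud1 and Sel1l had higher signals on all 3 KO arrays than on any Het array, and the chaperone gene Calr had lower signals. None passed the test. The 3 KO samples were compared in limma with 1 Het sample, the average of its arrays. Here 0 of the 30 members tested had a limma adjusted p under 0.05, as did 0% of all 13575 probe sets tested. Every member had adjusted p = 0.9999 in limma. At an unadjusted p under 0.05 there were 2 members, Atf4 and Herpud1, against 2.22% of all probe sets. With each array taken as a sample, limma called 0 probe sets as well, 1394 having an unadjusted p under 0.05; the lowest adjusted p of any member over the alternatives was 0.36, for Atf4 and Herpud1. The KO and Het arrays did not overlap for 4 of the 30 members, and for 16.7% of all probe sets, so this share is close to the background. By direction, 3 members were higher in KO (7.82% of all probe sets) and 1 was lower (8.91%). For any single gene, the smallest p of an exact two-sided permutation test on these arrays is 0.1.

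**Figure D1:**
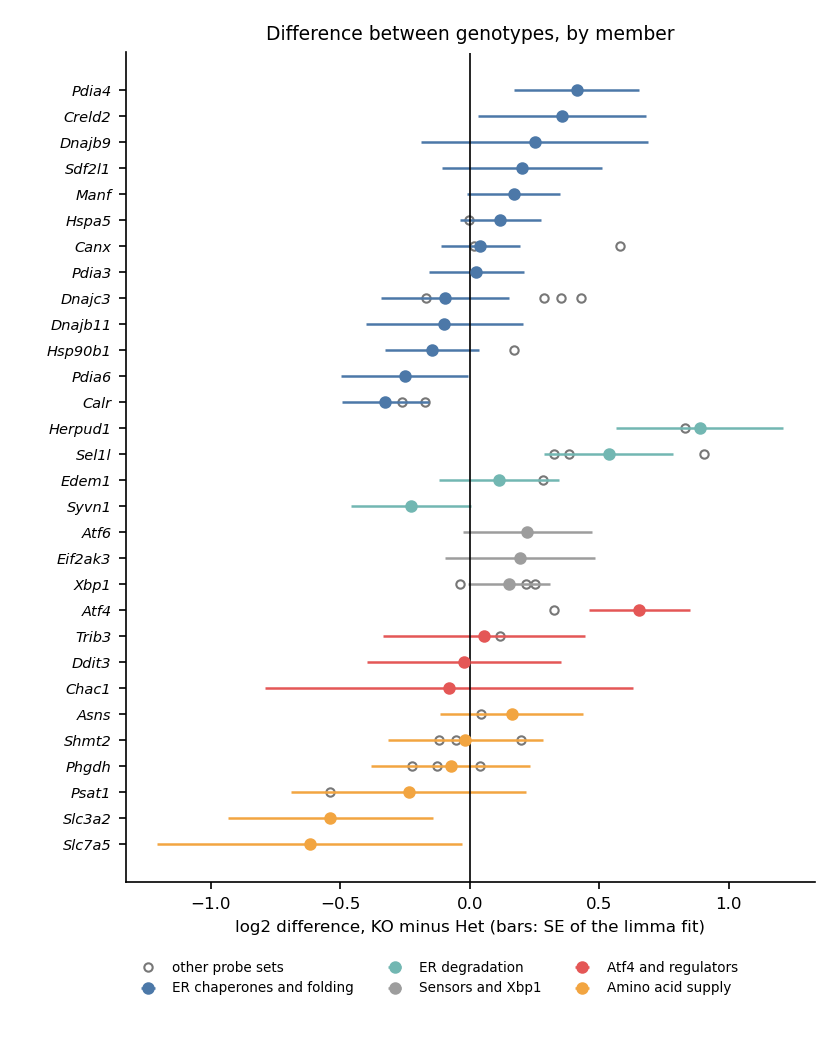
Log2 difference of KO minus Het for the 30 members whose main probe set passed the filter, ordered by role; filled points are main probe sets with the SE of the limma fit, and open points are the other probe sets of the gene that passed. Among the filled points Herpud1 lies furthest to the right at 0.89 and Slc7a5 furthest to the left at -0.62; an open point of Sel1l lies at 0.90.

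Over the 20 ER members tested, the median log2 difference of KO minus Het was 0.13, with 14 above 0 and 6 below, beside a median of -0.02 over all probe sets tested, of which 47.6% were above 0. Over the 10 ATF4 members it was -0.05, with 3 above 0 and 7 below. By role, the median was 0.04 for the 13 chaperones and folding enzymes, 0.33 for the 4 degradation genes, 0.19 for the sensors Atf6 and Eif2ak3 with Xbp1, 0.02 for Atf4 with its regulators, and -0.15 for amino acid supply. The sign of the ATF4 median rested on single KO metastases. Leaving out KO replicate 1 gave 0.10, leaving out replicate 2 gave 0.03 and leaving out replicate 3 gave -0.24.

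Herpud1, a membrane protein that helps assemble the ER degradation complex, had signals of 1084, 1060.0 and 708 on the KO arrays and 511, 608 and 395 on the Het arrays. The groups did not overlap, though KO replicate 3 lay nearer to Het replicate 2 than to the other KO arrays. The means were 951 ± 211 and 505 ± 107 (SD, n = 3 arrays each), a 1.85-fold difference on the log2(signal + 16) scale (log2 difference 0.89, SE 0.32; limma adjusted p = 0.9999). Its second probe set gave 0.83 and did not overlap either. Leaving out any 1 array kept the log2 difference between 0.73 and 1.08.

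Sel1l encodes the adaptor that holds the ubiquitin ligase HRD1 in place at the ER membrane. Its signals were 519, 513 and 429 in KO and 274, 365 and 358 in Het, again without overlap. The log2 difference was 0.54 (SE 0.25; limma adjusted p = 0.9999). The other 3 probe sets of Sel1l were also higher in KO on average, by 0.33, 0.90 and 0.38, but only the one at 0.90 did so without overlap. That probe set read 75.0 on Het replicate 1, against 156 and 222 on the other Het arrays. Het replicate 1 is the array with the raised 3' to 5' ratios of actin and the transferrin receptor, and the part of RNA quality in this value was not tested. Without that array the main probe set of Sel1l was at 0.41.

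The other degradation genes differed less. Edem1, a lectin that extracts misfolded glycoproteins from the folding cycle, had 752, 772 and 674 in KO and 712, 646 and 668 in Het, which overlap (log2 difference 0.11, SE 0.23). Syvn1, which encodes the HRD1 ligase itself, had 446, 416 and 461 in KO and 647, 449 and 479 in Het. Its log2 difference was -0.23 (SE 0.23), and -0.07 without Het replicate 1, the array that stood above the rest. The ligase and its adaptor Sel1l were thus on opposite sides of 0.

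**Figure D2:**
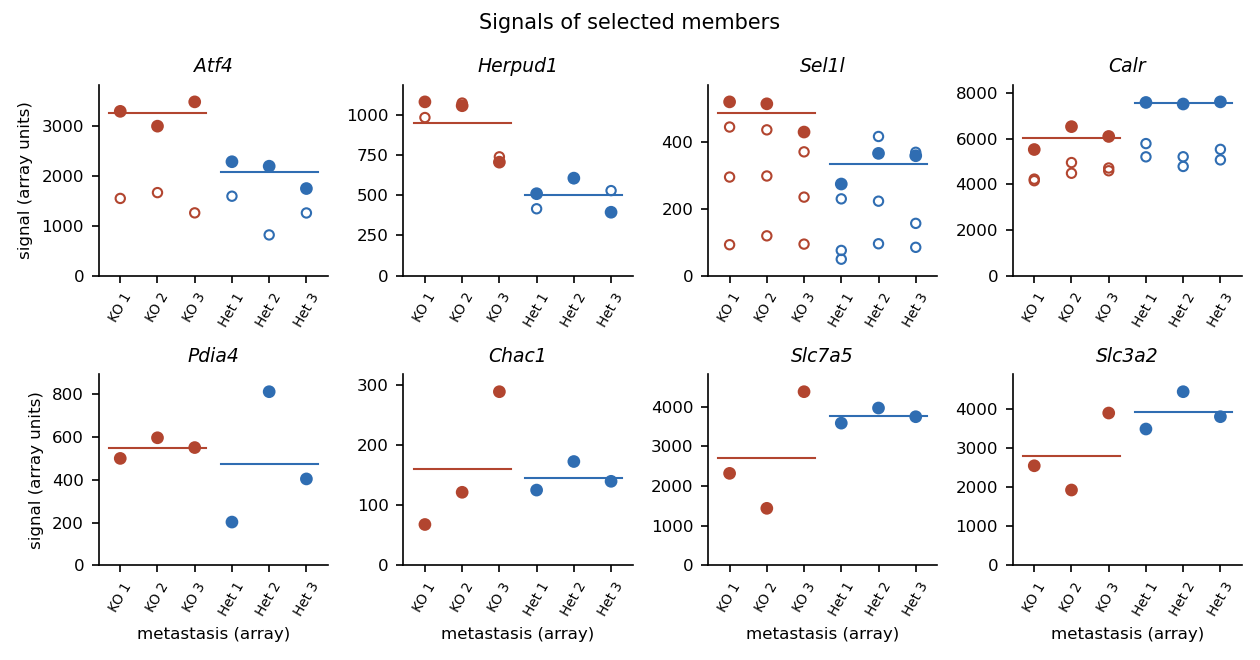
Signals of 8 members on each array on a linear axis from 0; filled points are the main probe set, open points the other probe sets that passed the filter, and lines the group means of the main probe set (KO red, Het blue). Atf4, Herpud1, Sel1l and Calr show groups that do not overlap, whereas Chac1, Slc7a5 and Slc3a2 spread widely among the KO arrays and Pdia4 among the Het arrays.

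Among chaperones, Calr (calreticulin, a lectin chaperone that binds calcium) had signals of 5519.7, 6522 and 6092 in KO and 7581, 7514 and 7608 in Het. All 3 KO arrays lay below the narrow range of the Het arrays. The log2 difference was -0.33 (SE 0.17; limma adjusted p = 0.9999), and both further probe sets of Calr were lower in KO without overlap, at -0.26 and -0.17. Its membrane-bound relative Canx (calnexin) had 6027, 5709 and 5749.6 in KO and 5785, 5525 and 5688 in Het, a log2 difference of 0.04 (SE 0.15). A dimmer Canx probe set gave 0.58, with 2194, 2056 and 2269 in KO and 1098, 1892 and 1463 in Het, so the probe sets of Canx disagree.

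The central chaperone Hspa5 (BiP), which also holds the sensors inactive, had 10573, 12695 and 12075 in KO and 10408, 11144 and 10927 in Het. The log2 difference was 0.12 (SE 0.16), and its second probe set was at -0.002. Hsp90b1 (GRP94), the ER form of HSP90, was at -0.14 (SE 0.18) with 1 further probe set at 0.17. For both of these core genes the difference was smaller than its SE. That of Hspa5 was larger than the log2 SD of its Het arrays, 0.05, but not than that of its KO arrays, 0.14.

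The disulphide isomerases form and rearrange disulphide bonds. Pdia3 was at 0.02 (SE 0.18) and Pdia6 at -0.25 (SE 0.24). Pdia4 had 499.8, 596 and 550.5 in KO and 202, 812 and 404 in Het. The KO arrays lay close together inside the range of the Het arrays, which spanned 4.01-fold although the Het arrays share a title number. The log2 difference of 0.41 (SE 0.24) became -0.07 when Het replicate 1 was left out and 0.90 when Het replicate 2 was.

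Several co-chaperones and secreted response genes followed the same order among the Het arrays. Sdf2l1, a partner of ER co-chaperones, had 519, 675 and 800.2 in KO and 457, 798 and 500.3 in Het. Creld2 had 2484, 1810.0 and 1489.8 in KO and 1268, 1923 and 1299.7 in Het. Manf, a secreted protein that binds BiP, had 3890.4, 4467 and 4058 in KO and 3332, 4230.2 and 3507 in Het. In each of these, Het replicate 2 was the highest Het array and Het replicate 1 the lowest.

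Among the 13 chaperones and folding enzymes, 9 were highest among the Het arrays in Het replicate 2, where 33.7% of all probe sets were, and 7 were lowest in Het replicate 1, where 34.1% were. Het replicate 1 is the array with the raised 3' to 5' ratios of actin and the transferrin receptor. The part of RNA quality in this order was not tested. The log2 differences between groups were 0.20 (SE 0.31) for Sdf2l1, 0.36 (SE 0.32) for Creld2 and 0.17 (SE 0.18) for Manf. With 1 array left out, that of Sdf2l1 ran from 0.05 without Het replicate 1 to 0.44 without Het replicate 2. That of Manf ran from 0.10 to 0.27 over the same arrays, and that of Creld2 from 0.16 without KO replicate 1 to 0.55 without Het replicate 2.

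The J-domain proteins, which stimulate BiP, went different ways. Dnajb9, a target of XBP1, had 803, 957 and 457 in KO and 598, 560.2 and 618 in Het, so KO replicate 3 was the lowest of all arrays and the other KO arrays the highest. Its log2 difference was 0.25 (SE 0.44); leaving out KO replicate 3 gave 0.56 and leaving out KO replicate 2 gave 0.04. Dnajb11 ran the other way within KO, with 665, 851 and 1017, against 862, 963 and 855 in Het (-0.10, SE 0.30). Dnajc3 (p58IPK), an inhibitor of PERK, was at -0.10 (SE 0.25), while its other 4 probe sets ran from -0.17 to 0.43.

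Xbp1 had signals of 12736, 12805 and 10678 in KO and 10573, 10414 and 11535 in Het, with a log2 difference of 0.15 (SE 0.16). The 2 next probe sets of Xbp1 were at 0.25 and 0.22 and the dimmest was at -0.04. These are total levels: no probe set is known here to separate spliced from unspliced Xbp1. The sensor Atf6 was at 0.22 (SE 0.25), with 369, 314 and 377 in KO and 324, 295 and 282 in Het. Eif2ak3 (PERK) was at 0.19 (SE 0.29), with 646, 463 and 469.7 in KO and 439.6, 547 and 385 in Het. Leaving out KO replicate 1, its highest array, gave 0.04, leaving out Het replicate 3 gave 0.08 and leaving out Het replicate 2 gave 0.33. Ern1 had 9.25 to 31.2 in KO and 14.0 to 36.4 in Het, too dim to be tested. All 3 tested genes of this role were above 0, and the arrays of the groups overlapped for each.

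Atf4 had signals of 3305, 3007 and 3496 in KO and 2291, 2201 and 1751 in Het. Every KO array was above every Het array, and the KO arrays lay close together. The means were 3269 ± 247 and 2081 ± 289 (SD, n = 3 arrays each), a 1.57-fold difference (log2 difference 0.65, SE 0.19; limma adjusted p = 0.9999). Leaving out any 1 array kept it between 0.54 and 0.73. A dimmer probe set of Atf4 gave 0.33 and overlapped, with 1552, 1669 and 1261 in KO and 1596, 817 and 1259 in Het. ATF4 is controlled mainly through translation, which arrays do not measure.

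For Chac1, Trib3 and Ddit3, which act downstream of Atf4, the arrays of the groups overlapped. Chac1, which degrades glutathione, had 68.0, 122 and 289 in KO and 125, 173 and 140.0 in Het. Its KO arrays spanned 4.25-fold and enclosed the Het arrays (log2 difference -0.08, SE 0.71). Trib3, a pseudokinase that restrains ATF4, had 567, 406 and 778 in KO and 495, 577 and 558 in Het (0.06, SE 0.39). Ddit3 (CHOP), a factor linked to cell death under stress, had 128, 196 and 224 in KO and 178, 171 and 195 in Het (-0.02, SE 0.37). In all 3, KO replicate 3 was the highest of the 6 arrays.

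The genes of amino acid supply showed the same order. Asns (asparagine synthetase) had 2754, 2902 and 4074 in KO and 2732, 2840.0 and 2996 in Het. Of the serine pathway, Phgdh had 2197, 2002 and 3181 in KO and 2474, 2631 and 2510.4 in Het. Psat1, the next enzyme, had 2141, 4150.4 and 4678 in KO and 3990.0, 3855 and 4426 in Het. KO replicate 3 was again the highest array in each, and KO replicate 1 or 2 was the lowest for the serine enzymes.

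Shmt2, which turns serine into glycine in mitochondria, had 2034, 2097 and 3101 in KO and 2426, 2669.7 and 2116 in Het. The log2 differences were 0.16 (SE 0.28) for Asns, -0.07 (SE 0.31) for Phgdh, -0.24 (SE 0.45) for Psat1 and -0.02 (SE 0.30) for Shmt2. A second probe set of Psat1 gave -0.54 without overlap, since it read 3520.4 on KO replicate 3 and 3625 on the lowest Het array.

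Slc7a5 and Slc3a2 encode the light and heavy chains of 1 transporter of large neutral amino acids, LAT1 with CD98. Slc7a5 had 2320.0, 1438 and 4379.7 in KO and 3587, 3968 and 3749 in Het. Slc3a2 had 2549, 1928 and 3899 in KO and 3489.7, 4445 and 3805 in Het. Both were lowest in KO replicate 2, next lowest in KO replicate 1, and in KO replicate 3 above at least 2 of the 3 Het arrays. Their log2 differences were -0.62 (SE 0.59) and -0.54 (SE 0.40). Without KO replicate 3 these were -1.04 and -0.81, and without KO replicate 2 they were -0.24 and -0.30. Slc7a11, the cystine transporter, had 8.75 to 31.0 over the 6 arrays, too dim to be tested.

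**Figure D3:**
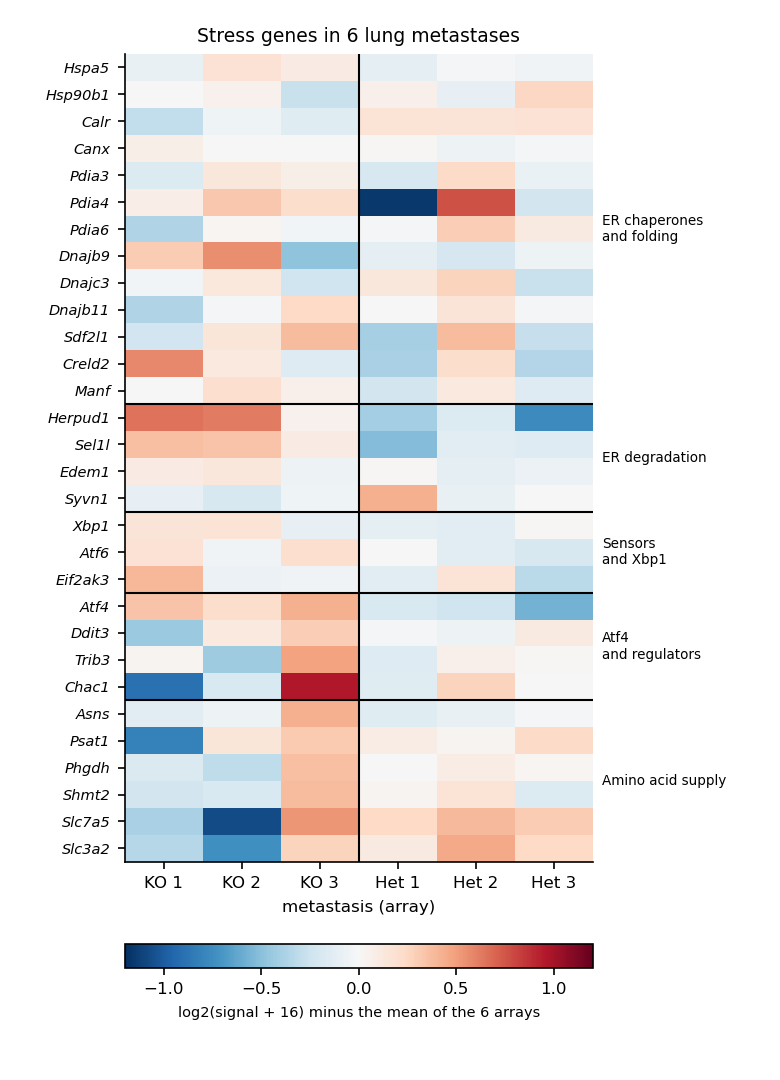
Log2(signal + 16) of the main probe set of each of the 30 members minus its mean over the 6 arrays, with members in rows by role and metastases in columns; red is above and blue below the mean. The ATF4 regulators and amino acid genes are red in KO replicate 3, and Pdia4 runs from -1.16 in Het replicate 1 to 0.76 in Het replicate 2.

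Across the branch, 9 of the 10 ATF4 members were highest in KO replicate 3, against 18.0% of all probe sets tested and 3 of the 20 ER members. By contrast, 4 of the 10 were lowest in KO replicate 1, against 21.8% of all probe sets. Another 4 were lowest in KO replicate 2, for which no share over all probe sets was computed. The exception in KO replicate 3 was Slc3a2, which was highest in Het replicate 2. These counts use the main probe sets alone. Among other probe sets past the filter, those of Trib3 and Asns were also highest in KO replicate 3. Those of Atf4 and Psat1 were highest in KO replicate 2 and Het replicate 2, respectively. Those of Phgdh and Shmt2 were divided between KO replicate 3 and Het arrays. The median of the ATF4 members, relative to the mean of the 6 arrays, was -0.28, -0.18 and 0.40 in KO replicates 1, 2 and 3. In Het replicates 1, 2 and 3 it was -0.01, 0.07 and 0.02. The ER members had 0.03, 0.13 and -0.02 in KO and -0.11, 0.05 and -0.08 in Het. The ATF4 minus the ER median was therefore -0.32, -0.31 and 0.42 in KO and 0.10, 0.02 and 0.09 in Het. These are descriptions of 6 metastases and carry no test.

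The spread within groups shows the same pattern. The log2 SD was larger among KO than among Het arrays for 9 of the 10 ATF4 members, against 59.5% of all probe sets, and for 12 of the 20 ER members. The median SD of the ATF4 members was 0.42 in KO and 0.11 in Het, beside 0.15 and 0.18 for the ER members and 0.22 and 0.18 over all probe sets. The exception was Atf4 itself, with 0.11 in KO and 0.21 in Het. Without KO replicate 3, the count was 7 of 10, against 44.6% of all probe sets. Leaving out KO replicate 1 gave 9 of 10, against 49.3%, and leaving out KO replicate 2 gave 9 of 10, against 56.3%. Among the Het arrays, leaving out replicate 1 gave 9 (against 66.9%), replicate 2 also 9 (69.7%) and replicate 3 gave 10 (59.5%). If the shared title number marks 1 mouse, the difference in spread cannot be told apart from the difference between mice.

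**Figure D4:**
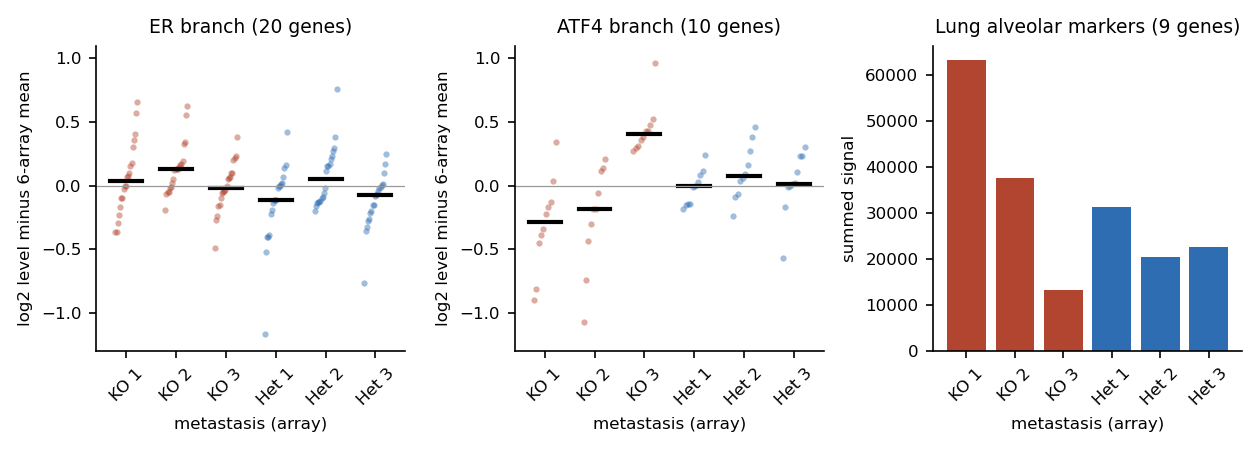
Log2 levels of the ER members (left) and ATF4 members (middle) on each array relative to the mean of the 6 arrays, with the median as a black bar, and the summed signal of 9 lung alveolar markers (right; KO red, Het blue). The ATF4 median is highest in KO replicate 3, at 0.40, the array with the lowest alveolar signal, 13330.4.

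Other cells in the metastases varied over the same arrays. KO replicate 3 had the lowest summed signal of alveolar markers and KO replicate 1 the highest. Ranked by that sum, the 6 arrays stood in exactly the reverse of their order by the ATF4 median, in Het as in KO, although the Het medians lay close together. The sum of the airway markers did not follow this order and was lowest in KO replicate 2. It was 23412, 6162 and 13315 in KO and 21907, 17228 and 17849 in Het, with 3 of 4 markers past the filter. All 8 endothelial markers passed the filter, with sums of 3007, 2408 and 1148 in KO and 2085, 1332 and 1330.3 in Het. All 7 macrophage markers passed, with 6738 on KO replicate 3 and 10825 to 14656 on the other arrays. Of 7 fibroblast markers 6 passed, with 5440.1 to 8446 in KO and 4758 to 4916 in Het. Of 4 neutrophil markers on the array 3 passed, with 1337, 8218 and 4607 in KO and 2051.5 to 4709 in Het. Some mammary markers varied as well. The milk protein gene Wap read 945, 3644 and 9295 in KO replicates 1, 2 and 3 and 7217 to 9654 in Het, and Elf5, a factor of milk-secreting cells, 3155, 5390.1 and 7346 in KO and 7318 to 8890.1 in Het. Within KO both followed the order of the ATF4 median, though KO replicate 3 did not exceed the highest Het array in either. Krt19 also followed that order within KO, but Krt8 and Krt18 ran the opposite way. In KO replicates 1, 2 and 3 Krt8 read 12113, 11425 and 9660, and Krt18 read 15158, 11452 and 8895. Epcam, Cdh1 and Csn2 followed neither order. As a mean over the 8 mammary markers, the log2 level relative to the 6 arrays was -0.37, -0.19 and 0.11 in KO and 0.09, 0.20 and 0.16 in Het. The part of these cells, lung or mammary, in the results was not tested.

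Plasma cells carry a large ER, so their markers bear on the ER members. Of 9 plasma and B cell markers on the array 3 passed the filter, and the summed signal was 1624, 3755 and 680.5 in KO and 2786, 1129.5 and 1749.6 in Het. Jchain, the joining chain of antibodies, was at 896, 2979 and 171 in KO and 2041, 689.8 and 1157 in Het. It was the largest part of the sum on every array except KO replicate 3, where the antibody heavy chain gene Ighm read 337. Tnfrsf17, the defining receptor of plasma cells, read at most 18.3. The ER median and Jchain were both highest in KO replicate 2. In Het the order differed, since Jchain was highest in Het replicate 1, where the ER median was lowest. The part of plasma cells was not tested.

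Further genes of the same pathways were listed beside the members. Of 27 other ER stress genes on the array all passed the filter, with 17 above 0 and 10 below, a median log2 difference of 0.06, and 0 past the test. KO and Het arrays were fully apart for 3 of these 27, against 16.7% of all probe sets. The 4 with the largest moderated t were Ostc, an oligosaccharyltransferase subunit, at 0.47 (SE 0.21), the chaperone Hyou1 at -0.47 (SE 0.23), the prolyl isomerase Fkbp11 at 0.59 (SE 0.37) and Selenos, a partner of the degradation complex, at 0.42 (SE 0.27). Hyou1 was at -0.19 without Het replicate 3, where it read 875, while the remaining arrays read 415 to 539. A second Hyou1 probe set past the filter was at 0.39.

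Of 30 other ATF4 targets and eIF2 kinases, 29 passed, with 15 above 0 and 14 below, a median of 0.004, and 0 past the test. Arrays of KO and Het were fully apart for 6 of these 29, a share close to the background of 16.7% of all probe sets. Mthfd2, Slc1a4 and Pck2 were higher in KO, and Atf3, Cebpb and Eif2ak4 were lower. Further probe sets past the filter of Mthfd2 (0.34), Slc1a4 (0.82) and Cebpb (-0.09) overlapped. Of these 29, 13 were highest in KO replicate 3, against 18.0% of all probe sets, and 22 had a larger SD in KO, against 59.5%. Atf3, a stress factor downstream of ATF4, had 332, 335 and 439.7 in KO and 604, 596 and 587 in Het. Its log2 difference was -0.68 (SE 0.27). The others named by moderated t were Pck2, a mitochondrial enzyme, at 0.52 (SE 0.24), the C/EBP factor Cebpb at -0.40 (SE 0.21) and the neutral amino acid transporter Slc1a4 at 0.74 (SE 0.45). Slc1a4 was thus higher in KO on average, whereas the transporter genes Slc7a5 and Slc3a2 were lower.

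Cytosolic heat shock genes, which answer to misfolded proteins outside the ER, had a median of -0.07 over 10 genes, with 4 above 0 and 6 below and 0 past the test. KO and Het arrays were fully apart for 5 of these 10, against 16.7% of all probe sets. The chaperones Hspa1a (-0.52, SE 0.26), Hsph1 (-0.53, SE 0.27) and Hspb1 (-0.54, SE 0.33) were lower in KO. Hspa8 (0.24, SE 0.15) and the J-domain gene Dnajb1 (0.31, SE 0.23) were higher, while Hspa1b (-0.15) and Bag3 (0.03) overlapped. The second probe set of Hsph1 was at -0.02 and overlapped. None of the 10 was highest in KO replicate 3, against 18.0% of all probe sets.

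The main probe set was not always borne out by the others. Of the 15 members with more than 1 probe set past the filter, 9 had all of them on 1 side of 0 and 6 had them on both sides. All probe sets past the filter lay on 1 side for Herpud1, Sel1l, Atf4, Calr, Canx, Edem1, Trib3, Asns and Psat1. They lay on both sides for Hspa5, Hsp90b1, Dnajc3, Xbp1, Phgdh and Shmt2.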

How the data were processed

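RNA of 6 lung metastases was measured on Affymetrix arrays. The deposited values are intensities on a linear scale, which the authors scaled to a common level, as the equal trimmed means of the columns show. Per the submitters' processing notes, MAS5 and Affymetrix Expression Console were used; no version is given in the sources used here. The number of arrays limits the precision.

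Signals were transformed to log2(signal + 16), which understates the change of dim genes. Without 64 controls and the dimmest 40% of probe sets (by mean log2 value), 13575 remained. The 3 Het arrays were averaged into 1 sample, because their titles share a number, and compared with 3 KO samples in limma 3.58.1 under R 4.3.3 (lmFit, eBayes with a mean-variance trend, Benjamini-Hochberg adjustment over all probe sets tested, threshold 0.05). This assumes that the single Het value has the same variance as a KO value. SE is that of the fit. The procedure was also run on simulated data in which all arrays were drawn as independent, with the spread of the KO arrays. That setting does not cover Het arrays that come from 1 mouse.

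The members and lists were chosen with earlier results of these data known. All 32 members are named, and from each of 3 further lists the 4 genes with the largest moderated t. In the platform annotation 20380 probe sets have 1 symbol, 691 have several and 1555 have none. Alternatives covered the unit of replication, pseudocount, filter, normalization, probe set and each array left out. The counts of members highest in KO replicate 3 and with a larger SD in KO were chosen after seeing the data. Promoters are RefSeq's, and no build is known for the array values.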

Additional observations from a re-analysis of the deposited data

How the results depend on the processing

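No paired analysis was possible because the labels give the groups no shared replicate numbers. In each of the 13 alternatives to the fit, limma called 0 probe sets; the lowest adjusted p was 0.274, with each array as a sample, and 162 to 1394 probe sets had an unadjusted p under 0.05. Of the 32 members, 18 kept the sign of their log2 difference under all 14 alternatives. With the mean over all probe sets of a gene, the difference turned to 0.013 for Hsp90b1, 0.16 for Dnajc3, 0.13 for Ern1 and 0.0015 for Shmt2, and with quantile normalization Shmt2 was at 0.0021. With 1 array left out, the difference ran from -0.063 to 0.15 for Pdia3, -0.065 to 0.90 for Pdia4, -0.25 to 0.015 for Dnajc3, -0.24 to 0.060 for Dnajb11, -0.28 to 0.17 for Ern1, -0.18 to 0.20 for Ddit3, -0.17 to 0.28 for Trib3, -0.58 to 0.35 for Chac1, -0.013 to 0.27 for Asns, -0.45 to 0.11 for Psat1, -0.27 to 0.059 for Phgdh, -0.21 to 0.091 for Shmt2 and -0.027 to 0.44 for Slc7a11. Members without overlap of arrays and with higher signals in KO numbered 3 in all, and 4 to 8 with 1 array left out. For lower signals they numbered 1 to 8. Fewer arrays overlap less easily, and the share of all probe sets without overlap was not computed with 1 array left out. The counts with 1 array left out thus cannot be judged against a background and are not a finding about the members. The cause of the other shifts was not tested. Present or absent calls of the probe sets were not analysed here, which leaves the background level of dim genes unknown.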
